A study of Mus musculus with 2 samples.

Results

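The 46 genes described here encode enzymes of amino acid, urea, creatine, polyamine and inositol metabolism, and they were measured in the kidney of newborn mice. They were taken from a fixed list of gene symbols, which was chosen with earlier results of these data known. Each was found once among the 69691 features of the deposited gene tables by its Ensembl identifier. The study profiled the kidney by total RNA-seq at postnatal day 0 in the mouse strain B6NCrl, with no treatment or genetic change named in the labels. All samples belong to 1 group of 2 pups, and each sample holds both kidneys of a single pup. The pups share a mother, so they are littermates, the labels carry the same donor identifier for both, and the sex of the pups was not collected. Per the labels, each library started from 10 ng of RNA longer than 200 nt. Since there is only 1 group, no conditions were compared and no p-value is given. What follows sets genes against each other within the tissue, and pup 2 against pup 1 as a measure of the spread.

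The kidney is a main site of amino acid handling. Its proximal tubule makes guanidinoacetate, the precursor of creatine, and converts citrulline to arginine for the rest of the body, while the complete urea cycle belongs to the liver. Tubule cells also release ammonia from glutamine, make serine, break down D-amino acids, proline and tyrosine, and open the ring of myo-inositol. In a growing organ the same amino acids feed the polyamines and the one-carbon units needed for cell division.

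In total, 48823952 expected counts (estimated reads) were deposited for pup 2 and 41584961 for pup 1. Where a gene has no count, a level of 3 counts cannot be told from 0, which is 0.0614 CPM (counts scaled to library size) in pup 2 and 0.0721 CPM in pup 1, counting error alone considered. Levels are given as deposited TPM (transcript abundance per transcript length, scaled to a fixed total in each library), and brackets hold the mean ± SD over both pups (n = 2). Markers of the labelled tissue were present. All 13 proximal tubule markers reached 1 TPM in both pups, from Slc5a2 (3.97 TPM in pup 2 and 5.82 in pup 1) to Kap (626 and 855), and so did all 23 markers of the loop of Henle, distal tubule, collecting duct, podocytes, nephron progenitors, stroma and endothelium, from Nphs1 (3.34 and 3.47) to S100g (4948 and 4374). Of 14 liver markers 10 reached that level, led by Afp at 95.2 TPM in pup 2 and 105 in pup 1, with Tat at 0 counts in both. Blood cells and neighbouring tissues were represented by 3 of 5 erythroid markers (up to Hbb-bs, with 1204 TPM in pup 2 and 1165 in pup 1), 6 of 6 macrophage and neutrophil markers (from Ngp, 2.53 and 3.37, to S100a8, 72.6 and 69.7), 3 of 5 skeletal muscle markers (Myh3, 0.01 and 0.05, to Mylpf, 4.29 and 2.31) and 2 of 5 adrenal markers (Cyp11b1, 0.08 and 0.09, to Pnmt, 2.81 and 3.07). Whole kidneys were sequenced, so fewer cells of a type and less RNA per cell cannot be told apart at any level below.

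Most of the enzyme genes were expressed, and many of them strongly. Of the 46 genes, 39 (84.8%) reached 1 TPM in each pup, which counts as detected below, while 61.5% of 21474 protein-coding genes and 33.9% of all 43346 Ensembl genes did so. The median over all 46 genes was 46.7 TPM in pup 2 and 45.8 in pup 1. Among the 39 detected genes the median was 52.7 TPM in pup 2 and 54.9 in pup 1, against 17.3 and 18.3 for all detected protein-coding genes. A mean of 100 TPM or more was reached by 12 genes, 22 lay between 10 and 100 TPM, and 5 detected genes lay under 10 TPM. Together the 46 genes held 0.293% of all TPM in pup 2 and 0.33% in pup 1.

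The 7 genes below the detection level were Nags, Cps1, Otc, Arg1, Gls2, Hpd and Bhmt. All of them encode enzymes best known from the liver. The level closest to the limit from below was that of Arg1, with 0.96 TPM in pup 2 and 1.18 in pup 1. Just above it stood Ddo, with 1.02 TPM in pup 2 and 1.07 in pup 1.

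Ranked by mean TPM, the order ran from Ass1, Phgdh, Gatm and Got2 through Gcsh, Glul, Glud1 and Miox down to Nags and Otc. The ranges of the pups overlapped in 24 of the 45 neighbouring steps of this order and were apart in 21. Ass1, Phgdh and Gatm each overlapped the next gene, although the ranges of Ass1 and Phgdh lay wholly above that of Got2. Within each pup Gatm also stood above Got2, at 216 against 212 TPM in pup 2 and 261 against 242 in pup 1. The ranges of Got2, Gcsh, Glul and Glud1 were apart from one another. The place of Glul in this order rests largely on short transcripts, described further on.

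**Figure D1:**
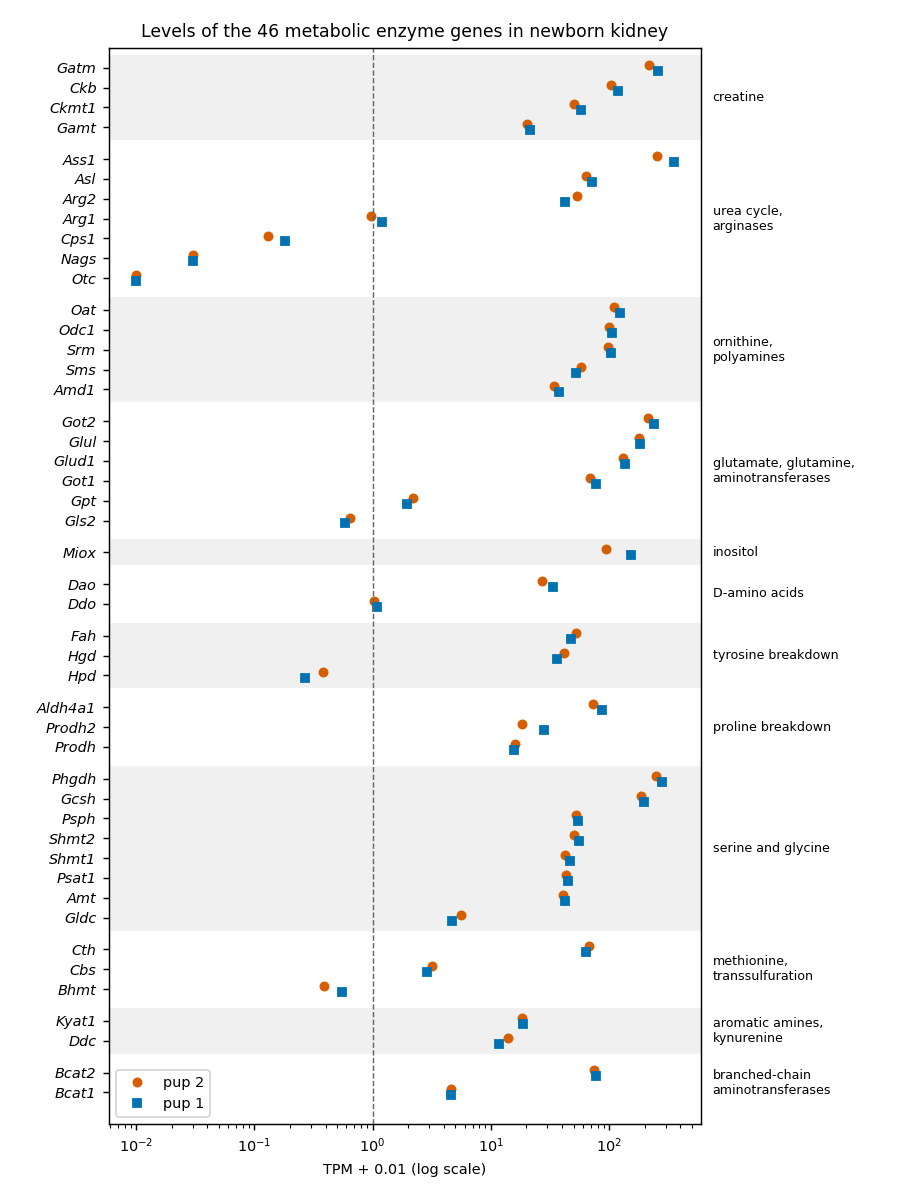
Levels of all 46 enzyme genes, grouped by pathway, with TPM + 0.01 on a log axis, circles for pup 2, squares for pup 1 and a dashed line at 1 TPM. Symbols of 1 gene lie close together in nearly every row, while genes of the same pathway spread widely, most of all in the urea cycle group, from Ass1 (254 TPM in pup 2 and 352 in pup 1) to Otc (0 in both).

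The first enzyme of creatine synthesis was among the most abundant members. Gatm, which joins arginine and glycine to guanidinoacetate, had 216 TPM in pup 2 and 261 TPM in pup 1 (238 ± 31.8), and lies (ENSMUSG00000027199.10) on chromosome 2 at 122594467 to 122611303 of the mm10 assembly. Gamt, which methylates guanidinoacetate to creatine, had 20.3 TPM in pup 2 and 21.5 in pup 1 (20.9 ± 0.799). On the scale of log2(TPM + 1) Gatm exceeded Gamt by 3.35 in pup 2 and 3.54 in pup 1. The step that commits arginine to the pathway thus had the higher level in both pups.

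Creatine kinases of brain type and of mitochondria, which move phosphate between ATP and creatine, were both expressed. Ckb, the cytosolic brain-type kinase, had 104 TPM in pup 2 and 118 in pup 1 (111 ± 9.86). Ckmt1, the ubiquitous mitochondrial kinase, had 50.5 TPM in pup 2 and 58.1 in pup 1 (54.3 ± 5.35). Ckb stood above Ckmt1 by 1.03 and 1.01 on the log2 scale, barely past the 2-fold limit, and with posterior mean TPM the pair no longer passed it in both pups. The muscle-type kinase Ckm was below detection at 0.79 TPM in pup 2 and 0.66 in pup 1, so that Ckb exceeded it by 5.88 and 6.17. Among the 3 other creatine genes, the creatine transporter Slc6a8 was highest at 9.78 TPM in pup 2 and 9.89 in pup 1, and the sarcomeric mitochondrial kinase Ckmt2 lowest at 0.12 and 0.

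Of the urea cycle, the section that makes arginine was expressed and the section that makes citrulline lay below detection. Nags, whose product N-acetylglutamate switches on carbamoyl phosphate synthesis, had 0.02 TPM and 1 expected count in each pup. Cps1, which makes carbamoyl phosphate from ammonia in mitochondria, had 0.12 TPM in pup 2 and 0.17 in pup 1, from 24 and 28 counts. Otc, which joins carbamoyl phosphate to ornithine, had 0 counts in both. These are the enzymes that would make citrulline from ammonia.

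The enzymes that turn citrulline into arginine were abundant. Ass1, argininosuccinate synthase, had the highest mean of all 46 genes, with 254 TPM in pup 2 and 352 TPM in pup 1 (303 ± 69.6), and lies (ENSMUSG00000076441.5) on chromosome 2 at 31470207 to 31520672. Asl, which splits argininosuccinate into arginine and fumarate, had 63.5 TPM in pup 2 and 71.4 in pup 1 (67.5 ± 5.61). Ass1 exceeded Asl by 1.98 in pup 2 and 2.29 in pup 1, and exceeded Cps1 by 7.83 and 8.24, which was the widest ratio among the 31 pairs examined.

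The arginases split arginine into urea and ornithine. Arg2, the mitochondrial form, had 53.2 TPM in pup 2 and 42.2 in pup 1 (47.7 ± 7.81). Arg1, the cytosolic liver form, had 48 counts in each pup and a mean of 1.07 ± 0.156 TPM. Arg2 exceeded Arg1 by 4.79 and 4.31 on the log2 scale. Of 9 other genes of arginine and urea metabolism, 6 were detected, led by Ddah2, which degrades methylated arginines, at 181 TPM in pup 2 and 201 in pup 1. Slc25a2, one of the mitochondrial ornithine carriers, was lowest at 0.09 and 0.11 TPM, while the carrier Slc25a15 had 18.9 TPM in pup 2 and 22.4 in pup 1.

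Ornithine and polyamine enzymes were all detected. Oat, which converts ornithine to a precursor of glutamate and proline, had 111 TPM in pup 2 and 124 in pup 1 (117 ± 9.14), and the log2 ratio of Arg2 to Oat was −1.05 in pup 2 and −1.53 in pup 1. Odc1, the decarboxylase that makes putrescine, had 99.4 TPM in pup 2 and 105 in pup 1 (102 ± 4.14). Amd1, which supplies the aminopropyl donor, had 34.2 TPM in pup 2 and 37.6 in pup 1 (35.9 ± 2.35), and Odc1 exceeded it by 1.51 and 1.46. These enzymes varied little between the pups.

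Spermidine synthase, Srm, had 97.8 TPM in pup 2 and 103 in pup 1 (100.3 ± 3.57). Spermine synthase, Sms, had 57.9 TPM in pup 2 and 52.5 in pup 1 (55.2 ± 3.78). The ratio of Sms to Srm, −0.75 in pup 2 and −0.96 in pup 1, did not pass 2-fold, although most of the Sms estimate came from short transcripts, described further on. All 10 other polyamine genes were detected. The lowest was agmatinase, Agmat, at 1.11 TPM in pup 2 and 1.52 in pup 1. The highest was Oaz1, the antizyme that binds Odc1 protein and sends it to degradation, at 1299.8 TPM in pup 2 and 1403 in pup 1. The log2 ratio of Odc1 to Oaz1 was −3.70 in pup 2 and −3.73 in pup 1, and −2.69 and −2.70 on full coding transcripts alone.

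Got2 and Glul led the glutamate and glutamine genes. Got2, the mitochondrial aspartate aminotransferase, had 212 TPM in pup 2 and 242 in pup 1 (227 ± 21.3). Its cytosolic counterpart Got1 had 69.2 TPM in pup 2 and 77.2 in pup 1 (73.2 ± 5.65) and was lower than Got2, at log2 ratios of −1.60 and −1.64. Both serve the malate-aspartate shuttle. Glud1, which releases ammonia from glutamate, had 132 TPM in pup 2 and 137 in pup 1 (134 ± 3.54).

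Glutamine synthetase, Glul, had 179 TPM in pup 2 and 182 in pup 1 (181 ± 1.79), of which 41.3 and 43.8 TPM lay on its full coding transcript. It adds ammonia to glutamate, and its level hardly differed between the pups. The liver-type glutaminase Gls2, which releases that ammonia again, had 0.63 TPM in pup 2 and 0.57 in pup 1 (0.6 ± 0.0424), and its reads were assigned to transcripts without the full coding sequence.

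Alanine aminotransferases were low. Gpt, the cytosolic form, had 2.19 TPM in pup 2 and 1.94 in pup 1 (2.065 ± 0.177), and the mitochondrial Gpt2 had 8.49 TPM in pup 2 and 9.61 in pup 1. Gpt was lower than Gpt2, at log2 ratios of −1.57 and −1.85. Of 8 other genes of this group 6 were detected. The highest was Pck1, which turns oxaloacetate from glutamine carbon into a glucose precursor, at 37.7 TPM in pup 2 and 55.9 in pup 1, and the lowest was the glyoxylate aminotransferase Agxt at 0.27 and 0.2.

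Serine synthesis was led by its first step. Phgdh, which oxidises 3-phosphoglycerate, had 249 TPM in pup 2 and 279.6 TPM in pup 1 (264 ± 21.65), the second highest mean of the 46 genes, and lies (ENSMUSG00000053398.7) on chromosome 3 at 98313170 to 98339990. Psat1, the next enzyme, had 43.3 TPM in pup 2 and 44.7 in pup 1 (43.99 ± 0.976). Psph, the phosphatase that releases serine, had 52.7 TPM in pup 2 and 54.9 in pup 1 (53.8 ± 1.56). Phgdh exceeded Psat1 by 2.50 and 2.62, whereas Psat1 and Psph, at −0.28 and −0.29, were within 2-fold.

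Serine and glycine are interconverted with transfer of a one-carbon unit to folate. Shmt1, the cytosolic hydroxymethyltransferase, had 42.5 TPM in pup 2 and 46.9 in pup 1 (44.7 ± 3.07), and Shmt2, the mitochondrial one, had 50.01 TPM in pup 2 and 55.8 in pup 1 (52.9 ± 4.06). Their ratio of −0.23 in pup 2 and −0.25 in pup 1 was within 2-fold.

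Subunits of the mitochondrial glycine cleavage system were far apart. Gcsh, the lipoyl carrier protein, had 186 TPM in pup 2 and 197 in pup 1 (192 ± 7.90). Amt, the aminomethyltransferase, had 40.4 TPM in pup 2 and 42.2 in pup 1 (41.3 ± 1.27). Gldc, the decarboxylase that starts the reaction, had 5.62 TPM in pup 2 and 4.67 in pup 1 (5.145 ± 0.672). The log2 ratio of Gldc to Amt was −2.64 in pup 2 and −2.93 in pup 1, and that of Gldc to Gcsh −4.82 and −5.13. The remaining subunit, Dld, which other dehydrogenase complexes also use, was the highest of 8 further serine and glycine genes at 175 TPM in pup 2 and 185 in pup 1. Of those 8 genes 6 were detected, and threonine dehydrogenase, Tdh, was lowest at 0.04 and 0.02 TPM.

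In methionine metabolism, the last step to cysteine stood far above the step before it. Cth, which releases cysteine from cystathionine, had 67.5 TPM in pup 2 and 63.3 in pup 1 (65.4 ± 2.97). Cbs, which makes cystathionine from homocysteine and serine, had 3.19 TPM in pup 2 and 2.87 in pup 1 (3.03 ± 0.226). The log2 ratio of Cbs to Cth was −4.03 in pup 2 and −4.05 in pup 1. Homocysteine can instead be methylated back to methionine.

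Bhmt, which does so with betaine, had 0.38 TPM in pup 2 and 0.54 in pup 1 (0.46 ± 0.113), and so stayed below detection. Its paralog Bhmt2, which uses S-methylmethionine, had 18.3 TPM in pup 2 and 20.0 in pup 1, and the folate-dependent synthase Mtr had 5.2 TPM in pup 2 and 5.42 in pup 1. Bhmt was lower than both, at log2 ratios of −3.81 and −3.77 to Bhmt2 and of −2.17 and −2.06 to Mtr. Of 13 other genes of this group 12 were detected. Mat2a, which makes S-adenosylmethionine outside the liver, was highest at 228 TPM in pup 2 and 248 in pup 1, and Mat1a, the liver form, was lowest at 0.14 and 0.16 TPM.

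Proline breakdown showed a higher level at its end than at its start. Prodh, proline dehydrogenase, had 16.1 TPM in pup 2 and 15.6 in pup 1 (15.9 ± 0.375). Aldh4a1, which oxidises the product to glutamate, had 72.7 TPM in pup 2 and 87.6 in pup 1 (80.1 ± 10.5), and exceeded Prodh by 2.10 and 2.42. Prodh2, which acts on hydroxyproline, had 18.1 TPM in pup 2 and 27.9 in pup 1 (23.03 ± 6.90). The ratio of Prodh to Prodh2 was −0.16 in pup 2 and −0.80 in pup 1, within 2-fold in both. All 5 other proline genes were detected, from the proline-making reductase Pycr1 at 9.67 TPM in pup 2 and 11.4 in pup 1 to Hoga1, which completes hydroxyproline breakdown, at 77.8 and 90.9.

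D-amino acids are oxidised in peroxisomes. Dao, which acts on neutral D-amino acids, had 26.9 TPM in pup 2 and 33.6 in pup 1 (30.3 ± 4.71). Ddo, which acts on D-aspartate, had 1.02 TPM in pup 2 and 1.07 in pup 1 (1.045 ± 0.0354). Dao exceeded Ddo by 3.79 and 4.06 on the log2 scale. Both other genes of the group were detected, with serine racemase, Srr, at 19.4 TPM in pup 2 and 18.6 in pup 1 and D-glutamate cyclase, Dglucy, at 4.0 and 4.55.

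Of the tyrosine breakdown enzymes, the later ones were expressed. Hpd, which makes homogentisate, had 0.37 TPM in pup 2 and 0.26 in pup 1 (0.315 ± 0.0778), from 13 and 10 counts. Hgd, which opens the homogentisate ring, had 41.4 TPM in pup 2 and 36.2 in pup 1 (38.8 ± 3.71). Fah, the last enzyme of the chain, had 52.6 TPM in pup 2 and 48.0 in pup 1 (50.3 ± 3.30). Hpd was lower than Hgd, at log2 ratios of −4.95 and −4.88, while Hgd and Fah, at −0.34 and −0.40, were within 2-fold.

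The enzyme before Hpd, tyrosine aminotransferase, Tat, had 0 counts in both pups. Of 5 other genes of this chain 4 were detected, with Pcbd1, which recycles the pterin cofactor of phenylalanine hydroxylase, highest at 275 TPM in pup 2 and 295 in pup 1. Tat and Hpd, which lead from tyrosine to homogentisate, were thus both below detection.

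Miox, which opens myo-inositol to glucuronate and is known as an enzyme of the proximal tubule, had 94.8 TPM in pup 2 and 152 in pup 1 (124 ± 40.75). The gene (ENSMUSG00000022613.4) lies on chromosome 15 at 89334398 to 89337015. Isyna1, which makes inositol phosphate from glucose 6-phosphate, had 119 TPM in pup 2 and 128 in pup 1. Their ratio changed sign between the pups, at −0.32 in pup 2 and 0.25 in pup 1, and stayed within 2-fold. Isyna1 was the highest and the proton-coupled inositol transporter Slc2a13 the lowest, at 1.51 TPM in pup 2 and 1.11 in pup 1, of 6 other inositol genes, all detected.

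The promoter of Miox is shown because this member had the largest pup difference among the 39 compared. The sequence is that of RefSeq on GRCm38.p6, read 5′ to 3′ on the gene's strand, and covers the 250 bases before the annotated start, at chr15:89334223-89334472 on the plus strand. Capitals mark TATAAA or its reverse complement TTTATA, the letters of the classical TATA box.
Miox promoter: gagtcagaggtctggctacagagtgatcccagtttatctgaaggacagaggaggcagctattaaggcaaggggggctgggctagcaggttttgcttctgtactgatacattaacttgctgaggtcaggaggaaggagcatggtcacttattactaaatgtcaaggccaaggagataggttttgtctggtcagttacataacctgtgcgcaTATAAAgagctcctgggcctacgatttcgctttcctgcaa
TATAAA began 40 bases before the start. Both strands were searched. The table held 46 promoter windows for 38 of the members, of which 8 (17.4%) held these letters, against 12.4% of all 32851 windows of this length. The members with such a window were Bcat1, Ckb, Ckmt1, Ddc, Got2, Hgd, Miox and Phgdh. A match is a description of letters and does not show binding.

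Ddc and Kyat1 act on aromatic amino acids and kynurenine. Ddc, which decarboxylates DOPA to dopamine and 5-hydroxytryptophan to serotonin, had 14.0 TPM in pup 2 and 11.8 in pup 1 (12.9 ± 1.56). Tyrosine hydroxylase, Th, which supplies DOPA in catecholamine cells, was below detection at 0.46 TPM in pup 2 and 0.17 in pup 1, so that Ddc exceeded it by 3.36 and 3.45. Kyat1, a kynurenine aminotransferase that is also a glutamine transaminase, had 18.3 TPM in pup 2 and 18.7 in pup 1 (18.5 ± 0.283). Its paralog Kyat3 had 21.5 TPM in pup 2 and 18.5 in pup 1, and their ratio, −0.22 and 0.01, was within 2-fold.

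Of 15 other genes of this group 10 were detected. The highest was Aadat, the mitochondrial kynurenine and aminoadipate aminotransferase, at 327 TPM in pup 2 and 318 in pup 1. The lowest was Ido1, one of the enzymes that open the tryptophan ring, at 0.04 and 0.07 TPM.

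Ddc is shown with both of its RefSeq promoters because the transcripts of the gene could be assigned to them. In human and rat the gene is known to use separate first exons in neuronal and non-neuronal tissues. Transcripts starting within 100 bases of the upstream start held 8.15 TPM in pup 2 and 7.89 in pup 1. Those at the start 7736 bases further downstream held 0.48 TPM in pup 2 and 0.14 in pup 1, and the remaining Ddc estimate came from transcripts that begin elsewhere. The upstream start thus carried more in both pups. Its 250 bases are chr11:11898145-11898394 and those of the downstream start chr11:11890409-11890658, both on the minus strand, with the same letters in capitals.
Ddc promoter, upstream start: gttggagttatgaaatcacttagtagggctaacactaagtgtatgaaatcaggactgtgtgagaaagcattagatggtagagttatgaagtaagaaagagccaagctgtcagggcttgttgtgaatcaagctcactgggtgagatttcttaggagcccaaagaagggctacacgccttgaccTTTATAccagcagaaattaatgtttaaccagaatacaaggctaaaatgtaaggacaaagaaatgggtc
Ddc promoter, downstream start: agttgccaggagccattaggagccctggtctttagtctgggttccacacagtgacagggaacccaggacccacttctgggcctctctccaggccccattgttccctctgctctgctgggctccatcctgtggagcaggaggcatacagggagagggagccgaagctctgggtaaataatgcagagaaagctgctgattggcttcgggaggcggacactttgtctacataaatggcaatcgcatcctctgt
TTTATA began 68 bases before the upstream start, and the letters were not found in the downstream window on either strand.

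Of the branched-chain aminotransferases, the mitochondrial one was higher. Bcat2, the mitochondrial aminotransferase, had 74.3 TPM in pup 2 and 76.8 in pup 1 (75.5 ± 1.81). Bcat1, the cytosolic form, had 4.61 TPM in pup 2 and 4.62 in pup 1 (4.615 ± 0.00707). The log2 ratio of Bcat1 to Bcat2 was −3.75 in pup 2 and −3.79 in pup 1. All 12 other genes of this chain were detected, from Dbt, the core subunit of the ketoacid dehydrogenase, at 9.84 TPM in pup 2 and 12.2 in pup 1 to Hibadh, a dehydrogenase of valine breakdown, at 172 and 179.

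**Figure D2:**
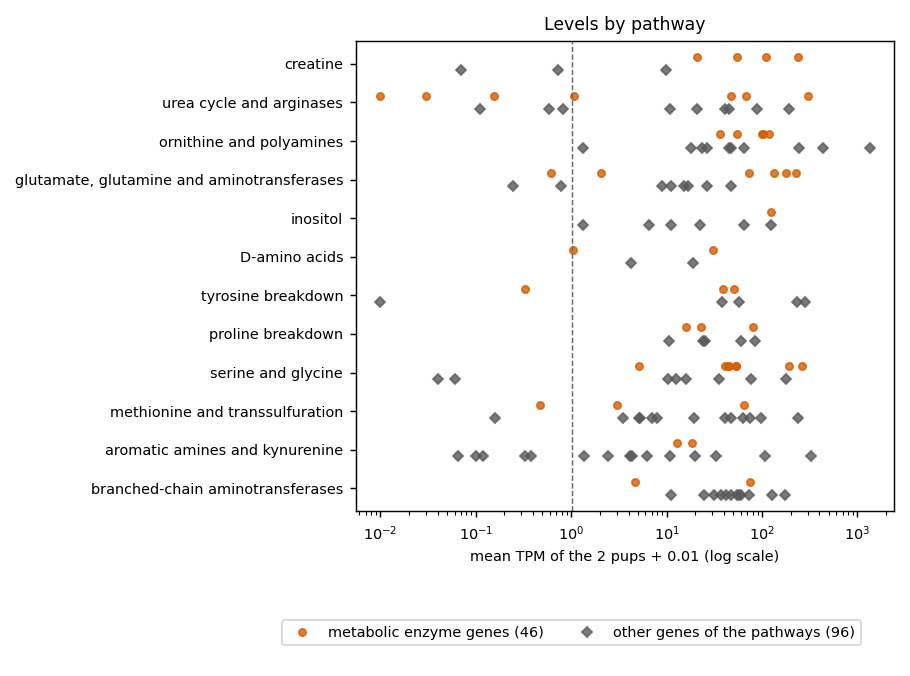
Mean TPM + 0.01 of the pups on a log axis for the 46 enzyme genes (circles) and 96 other genes of the same pathways (diamonds), 1 pathway per line, with a dashed line at 1 TPM. In the urea cycle line 3 circles lie far to the right, Arg1 lies close to the dashed line and Cps1, Nags and Otc lie left of it, while all circles of the creatine, polyamine, proline and serine lines lie right of it.

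Over all pathways, 80 of the 96 other genes (83.3%) were detected, a share close to that of the 46 enzyme genes. Of the 31 pairs of isoenzymes, consecutive steps or opposing enzymes, 22 (71.0%) were more than 2-fold apart in the same direction in both pups. Among all pairs of detected protein-coding genes this share was 68.6%, near that of the 31 pairs. The gene named first was higher in 11 pairs and lower in 11. The 9 pairs not apart were Cps1 with Otc, Cps1 with Nags, Sms with Srm, Miox with Isyna1, Hgd with Fah, Prodh with Prodh2, Psat1 with Psph, Shmt1 with Shmt2 and Kyat1 with Kyat3. In the pairs of Cps1 with Otc and Nags both genes were below detection, and the added 1 TPM hides any ratio.

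**Figure D3:**
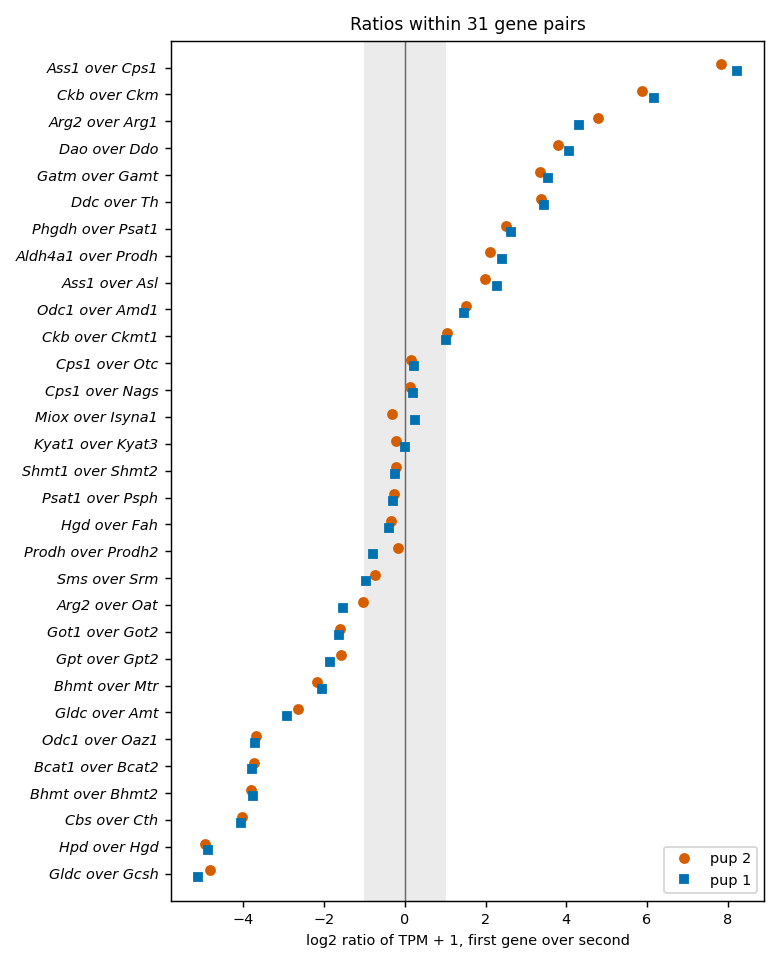
Log2 ratio of TPM + 1, first gene over second, for 31 gene pairs, with circles for pup 2, squares for pup 1 and a grey band for ratios within 2-fold. The pups' symbols lie close together in every pair, and the ratios run from 7.83 in pup 2 and 8.24 in pup 1 for Ass1 over Cps1 to −4.82 and −5.13 for Gldc over Gcsh, the lowest mean, with Hpd over Hgd slightly lower in pup 2 at −4.95.

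Between the littermates the enzyme genes differed little. Ratios of pup 2 over pup 1 were taken from scaled counts for the 39 members that had 50 expected counts or more in 1 of the pups. None of the 39 was past 2-fold, against 0.601% of 15150 genes, 0.158% lower and 0.442% higher in pup 2. At 1.5-fold 1 of the 39 was past the limit, against 2.57% of all genes. In pup 2, 17 members were lower and 22 higher, and 48.2% of all genes were lower. The median log2 ratio of the members was 0.01 and that of all genes 0.01, and the median size of the ratio was 0.09 for members and 0.10 for all genes.

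The member past 1.5-fold was Miox, with 3372 counts in pup 2 and 4397 in pup 1 and a log2 ratio of −0.59. Prodh2 followed at −0.48 with 1008 counts in pup 2 and 1222 in pup 1, and Ass1 at −0.38. Among 8745 genes at 10 to 500 TPM, 95% had a log2 ratio smaller in size than 0.28. The largest positive ratios belonged to Arg2 at 0.43, Gldc at 0.36 and Ddc at 0.28. Gatm had a log2 ratio of −0.18, Aldh4a1 of −0.18 and Dao of −0.22.

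Most markers of the proximal tubule were lower in pup 2, whereas 17 of the 39 members were lower and 22 higher. Of the 13 markers 12 were lower in pup 2, with a median log2 ratio of −0.18, and their summed level was 1773.5 TPM in pup 2 and 2331 in pup 1. Any relation of these markers to the differences of the members, lower or higher, was not tested. The liver markers summed to 257 TPM in pup 2 and 282 in pup 1, and 2 of them were past 2-fold: Alb, with 2.42 TPM in pup 2 and 5.65 in pup 1 (log2 ratio −1.11), and Ahsg, with 2.15 and 5.15 (−1.13). The 7 members below detection encode enzymes best known from the liver. Among them Otc had 0 TPM in both pups, and Arg1, the highest, had 0.96 in pup 2 and 1.18 in pup 1. Any relation of their levels to the liver markers was not tested. Of the 83 other pathway genes compared, 55 were lower in pup 2, none was past 2-fold, and the median log2 ratio was −0.05.

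**Figure D4:**
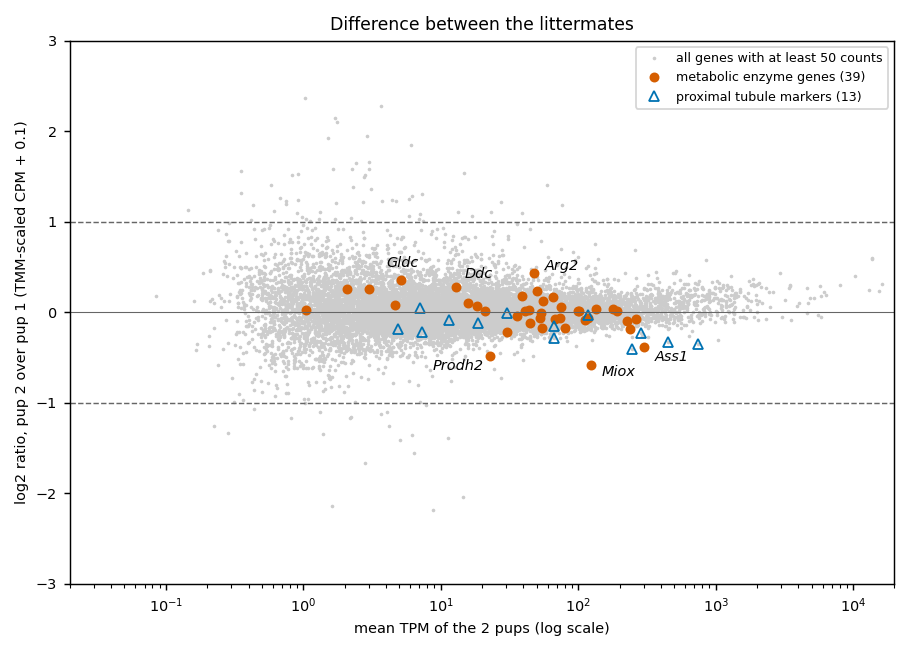
Log2 ratio of pup 2 over pup 1 against the mean TPM on a log axis, with grey points for 15150 genes, circles for 39 enzyme genes, triangles for 13 proximal tubule markers and dashed lines at 2-fold. The enzyme genes stay between −0.59 for Miox and 0.43 for Arg2, inside the dashed lines, and 12 of the 13 triangles lie below 0.

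The estimates of most members rested on a single kind of transcript. Transcript names and coding lengths are those of the GENCODE M21 annotation, and shares are percentages of the TPM of the gene. All 39 detected members had the same leading transcript in both pups, and in 21 of them it held at least 90% in both. In 24 members at least 90% of the TPM lay on transcripts with at least 90% of the longest coding sequence. This held for Ass1, Phgdh, Gatm and Got2, where the share was 98.8% or more in both pups.

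Glul was the most abundant member for which it did not hold. Its full-length transcript Glul-201 had 41.3 TPM in pup 2 and 43.8 in pup 1, which is 23.0% and 24.1% of the gene. Glul-202, of 681 nt, had 93.0 TPM in pup 2 and 95.3 in pup 1, and Glul-203, of 379 nt, had 44.0 and 42.0. Both are annotated as protein-coding but hold only part of the coding sequence.

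Sms rested on its full coding transcript for 11.4% of its TPM in pup 2 and 11.8% in pup 1, or 6.58 and 6.20 TPM. Sms-202, of 321 nt, held 50.1% in pup 2 and 43.9% in pup 1, and Sms-204, annotated as a target of nonsense-mediated decay, held 34.1% and 40.15%. On full coding transcripts, a comparison added after the values were seen, the log2 ratio of Sms to Srm was −3.67 in pup 2 and −3.83 in pup 1, and the pair was then apart. The choice of transcripts decided this ratio more than the choice of pup.

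In other members several forms shared the estimate. Dao-201, with a coding sequence of 747 nt against 1035 nt in the longest form, held 44.3% in pup 2 and 54.4% in pup 1, at 11.9 and 18.3 TPM. The full coding Dao transcripts together had 14.2 TPM in pup 2 and 14.7 in pup 1, closer between the pups than the whole gene. Bcat1-203, which begins at the upstream of the annotated starts, led Bcat1 with 78.35% in pup 2 and 80.3% in pup 1. The longest Bcat1 coding sequence belongs to Bcat1-201, which begins 27345 bases downstream and had 0.08 TPM in pup 2 and 0.07 in pup 1. Counted on full coding transcripts alone, the log2 ratio of Bcat1 to Bcat2 was −5.43 in pup 2 and −5.70 in pup 1, that of Dao to Ddo was 2.91 and 2.93, and that of Ckb to Ckm was 6.72 and 6.90, each still apart in the same direction.

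**Figure D5:**
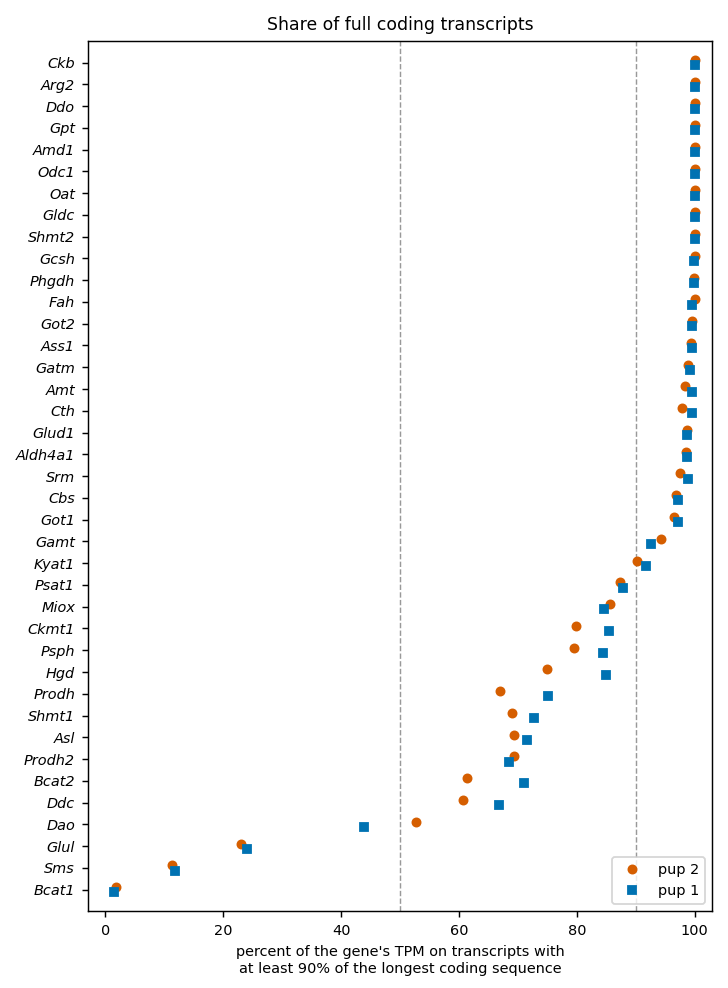
Percent of each detected member's TPM on transcripts with at least 90% of the longest coding sequence, with circles for pup 2, squares for pup 1 and dashed lines at 50 and 90 percent. The upper 24 genes lie at 90 percent or more in both pups, while Glul (23.0% in pup 2 and 24.1% in pup 1), Sms (11.4% and 11.8%) and Bcat1 (1.74% and 1.52%) lie far to the left. For Bcat1 the place depends on the limit, since its leading transcript codes for 1158 nt against 1359 nt in the longest form.

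Some levels are less certain because other genes share their sequence. Among windows of 50 bases taken from the transcripts of each member, 21 members shared none with another gene and 9 shared more than 10%. The highest share was that of Amd1, at 78.1%, most of it with Amd2, which had 0.84 TPM in pup 2 and 1.00 in pup 1. Phgdh shared 47.8% of its windows with pseudogenes and other genes, Odc1 24.3% and Got2 16.8%. Sms shared 17.5%, nearly all with the processed pseudogene Sms-ps, which was given 7.52 TPM in pup 2 and 9.31 in pup 1. That is more than the full coding transcript of Sms, at 6.58 and 6.20 TPM. Its full coding level and the ratio to Srm on full coding transcripts are thus less certain. Ass1 shared 38.6% with the processed pseudogene Gm5424, which was given 4.49 TPM in pup 2 and 9.60 in pup 1, small beside the level of Ass1 itself.

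Exons of 13 members lie over exons of another gene. Whether counting used the strand is not stated, so reads in such stretches cannot be assigned with certainty. For Arg2, 28.1% of the exonic bases are covered, mostly by Vti1b on the opposite strand, which had 87.2 TPM in pup 2 and 87.4 in pup 1. For Aldh4a1 32.5% are covered, by the annotated gene Gm21969 on the same strand, at 0.01 and 0.03 TPM. For Psph 10.4% are covered, by Cct6a on the opposite strand, at 253 TPM in pup 2 and 295 in pup 1. The levels and pup differences of Arg2 and Psph carry this uncertainty, as do the pair ratios that include them.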

How the data were processed

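Total RNA-seq of both kidneys of each of 2 newborn pups was analysed from the gene and transcript tables that the authors deposited for each library. Per the file headers, every feature has an expected count (estimated reads, without normalization) with its posterior standard deviation, a TPM, a posterior mean TPM and an FPKM, and every transcript the percent of TPM it holds within its gene. The text that the authors deposited with the tables gives mm10 as the assembly and GENCODE M4 as the annotation. Not given in the sources used here are the aligner, software versions and whether counting was stranded. RNA was extracted with mirVana, and the labels' protocols also list a SMARTer Ultra Low kit manual.

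Each table held 69691 features, of which 43346 were Ensembl genes. Names and coordinates came from GENCODE M21 of the same assembly by identifier without version, which named 42462 genes. All 46 members matched. Of the 160 member transcripts with a TPM above 0, 128 had the same length in M21 and 6 were not in it, so their coding length is unknown here. The members and lists were chosen with earlier results of these data known.

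Detection was a deposited TPM of at least 1 in both pups. Gene pairs were compared by the log2 ratio of TPM + 1 in each pup, where the added 1 shrinks differences of low genes, and called apart past 2-fold in the same direction in both pups. For the pup ratio, expected counts were rounded to whole numbers, scaled by TMM in edgeR 4.0.16 (R 4.3.3) and taken as log2 of CPM + 0.1, for 15150 genes with at least 50 counts in either pup, called at 2-fold. Across 17606 genes edgeR estimated a biological coefficient of variation of 7.34%. With 2 pups no p-value was computed, and no paired fit exists. Where a member had at least 100 counts, the deposited posterior standard deviation was at most 1.58% of its count. Precision is otherwise set by the spread between the pups, who share a litter. In simulated libraries with 200 genes changed, 100% of 66, 69 and 65 genes changed 3-, 4- and 8-fold were called, against 0.0201% of 14912 unchanged genes. Every simulated gene was drawn with the coefficient of 7.34%, and changes of 3-fold or more were set against a 2-fold limit. High recovery was thus built in. Between the real pups 0.601% of 15150 genes were past 2-fold, so the simulated rate is not an error rate for the real data.

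All 46 members and all genes of the pairs are named, in each pathway list the other gene of highest and of lowest mean TPM, and every other pathway gene or marker past 2-fold between the pups; marker lists are given by count and range. A few genes that this rule names are left out here, and Slc25a15 is named outside it. Shared sequence was counted as windows of 50 bases of M21 transcripts. Promoters are RefSeq windows, and transcripts were assigned to a RefSeq start within 100 bases. Alternatives were other detection limits, posterior mean TPM, FPKM, TPM rescaled to protein-coding genes, other pseudocounts and count minimums, DESeq2 1.42.0 size factors, library totals, leaving out each pup, and full coding transcripts alone. Other steps ran in Python 3.11.15 (NumPy 2.4.6, pandas 2.3.3, Matplotlib 3.10.9).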

Additional observations from a re-analysis of the deposited data

How the results depend on the processing

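The median level of the 46 enzyme genes was 46.2 TPM as the mean of both pups. It was 58.4 TPM when TPM was rescaled to protein-coding genes outside the mitochondrial genome, 39.7 TPM on full coding transcripts alone (an alternative chosen after seeing the data), 46.8 TPM from posterior means and 45.8 to 46.7 TPM with either pup left out. The number of detected genes ranged from 34 at a limit of 5 TPM to 41 at 0.5 TPM, and from 39 to 40 with either pup left out. The number of pairs apart ranged from 21 to 23. Among single pairs, Ckb over Ckmt1 was no longer past 2-fold in both pups with posterior means (1.003, mean log2 ratio). Cps1 over Otc was apart with a pseudocount of 0.1 (1.285), Sms over Srm was apart at 1.5-fold, and it was −3.75 on full coding transcripts, where the short transcripts are left out by construction. The number of members with a leading transcript at 90% was 21 to 22. Between the pups, no member was past 2-fold under any other scaling or count minimum, and 1 was past 1.5-fold. Over all genes, 91 were past 2-fold, against 638 with no filter on low counts, 390 with at least 10 counts, 390 at 1.5-fold and 38 with 1 CPM added, settings that by construction change which low genes enter, where the limit lies or how far low ratios shrink. The pup difference needs both pups, so leaving out a pup gave no value. No paired analysis was possible because the labels give only 1 group. Depth limits the members near 0: Otc had no count, and Nags, Hpd, Cps1 and Gls2 had 28 counts or fewer in each pup.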

Other observations

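Besides Ddc, other members had more than 1 RefSeq start, and, Bcat2 aside, the start carrying more was the same in both pups for each. Ckmt1, the mitochondrial creatine kinase, had 38.3 TPM in pup 2 and 47.0 in pup 1 on transcripts from its upstream start, and 3.12 and 3.68 on those from a start 834 bases downstream. Psat1, of serine synthesis, had 25.2 TPM in pup 2 and 27.2 in pup 1 from its upstream start, and 12.6 and 12.03 from a start 437 bases downstream. Dao, the oxidase of D-amino acids, used 3 starts within 1073 bases. The middle one, which leads to the shorter coding sequence, had 11.9 TPM in pup 2 and 18.3 in pup 1, and the outer ones had 7.1 and 7.11 TPM in pup 2 and 7.76 and 6.97 in pup 1. For Bcat2 no M21 transcript with an estimate begins within 100 bases of the second start. Transcripts not in M21 could not be assigned, so the use of that start could not be read.

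Asl and Bcat2 were the detected members whose leading transcript held less than 50% in both pups. Asl-205 held 38.4% of the Asl estimate in pup 2 and 40.9% in pup 1, and Asl-202, with a coding sequence of the same length, held 30.9% and 30.7%. Bcat2-201 held 46.1% of the Bcat2 estimate in pup 2 and 42.5% in pup 1. A Bcat2 transcript of 1684 nt that M21 does not list held 29.3% in pup 2 and 19.4% in pup 1, so the full coding share of Bcat2 is a lower limit.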
